A study of Mus musculus with 6 samples.

Results

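Cxcl9, Cxcl10 and Cxcl11 encode the 3 ligands of the chemokine receptor CXCR3, and they were followed here with Cxcr3 itself, with Cxcl16 and with its receptor gene Cxcr6. These 6 genes were taken by symbol from the deposited table of 25251 genes, and all 6 passed the filter on low values, which asked for normalized counts averaging 10 or more. RNA came from subcutaneous tumours that grew in BALB/c mice after injection of CT26 cells, a mouse colon carcinoma line of the same strain, with the genotype given as WT. In the treated group mice received CPT-11, the prodrug irinotecan, which inhibits topoisomerase I once converted, intraperitoneally at 25 mg/kg every 4 days, and the other group received solvent, with mice randomized at a tumour volume of 100 mm3. Each group has 3 samples in the labels, while the series text speaks of duplicates. The labels used here do not state ages, the number of doses or the time of collection, nor do they say that each sample came from its own mouse, so p-values measure only the spread between these samples.

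CXCL9, CXCL10 and CXCL11 are small secreted chemokines of the CXC class. Macrophages, dendritic cells, endothelial cells and tumour cells make them on exposure to interferon-gamma, and CXCL10 also answers to type I interferon and to NF-kB. They attract activated CD8 T cells, Th1 cells and NK cells through CXCR3, and in tumours they are known as signals for T cell entry. CXCL16 is made as a membrane-bound protein with a chemokine domain on a mucin stalk, and it attracts cells with CXCR6, such as resident and effector T cells and NKT cells, after it is cut off by the protease ADAM10. The genes of the 3 CXCR3 ligands lie next to each other and in the same orientation.

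On GRCm38 the cluster covers 44.1 kb of chromosome 5, minus strand, with Cxcl9 from 92321347 to 92328079, Cxcl10 from 92346638 to 92348889 and Cxcl11 from 92359544 to 92365485. Cxcr3 lies on chromosome X from 101731535 to 101734269 (minus strand), Cxcl16 on chromosome 11 from 70453983 to 70459984 (minus strand), and Cxcr6 on chromosome 9 from 123806475 to 123811760 (plus strand). The deposited gene length equals the number of exonic bases in GENCODE M21 for each of the 6 genes. The deposited table classes Cxcl11 as a polymorphic pseudogene and the other 5 as protein-coding. As background, C57BL/6, the strain of the reference genome, carries a Cxcl11 allele that is interrupted by a frameshift, and the reads here count RNA of the gene whether or not it is translated. Of the exonic bases of Cxcl11, 41.7% are shared with Gm2673, a pseudogene annotated on the plus strand that is not used here. Cxcl16 shares 18.3% of its exonic bases with Zmynd15, and Cxcl10 shares 5.91% with Art3, both on the opposite strand. The strand setting of the counting, not given in the sources used here, matters for these stretches. Without it, reads in them cannot be assigned to 1 gene.

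The sequences just upstream of Cxcl9 and Cxcl10 are shown because these are the 2 most abundant CXCR3 ligand genes per length, and both have an entry in the RefSeq promoter table (GRCm38.p6), as do Cxcr3 and Cxcr6. Each window holds the 250 bases before the RefSeq start, read 5′ to 3′ on the minus strand, at chr5:92328080-92328329 for Cxcl9 and chr5:92348890-92349139 for Cxcl10. Capitals mark matches to the motifs searched.
Cxcl9: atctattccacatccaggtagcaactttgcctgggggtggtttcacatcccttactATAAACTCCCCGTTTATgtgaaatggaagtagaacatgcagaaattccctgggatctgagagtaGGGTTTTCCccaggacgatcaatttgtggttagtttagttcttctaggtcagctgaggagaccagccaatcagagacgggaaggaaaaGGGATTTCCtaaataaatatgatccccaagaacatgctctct
Cxcl10: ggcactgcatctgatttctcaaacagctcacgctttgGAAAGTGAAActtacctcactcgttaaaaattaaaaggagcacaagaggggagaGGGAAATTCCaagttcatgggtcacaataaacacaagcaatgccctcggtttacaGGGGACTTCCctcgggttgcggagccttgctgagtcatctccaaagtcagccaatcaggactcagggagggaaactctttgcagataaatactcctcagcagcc

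Motifs were searched on both strands in the 250-base windows of all 32851 entries of that table. The interferon-stimulated response element, spelled GAAA, any 2 bases and GAAA, was found in the Cxcl10 window as GAAAGTGAAA, from 213 to 204 bases upstream of the start, and in 2.98% of all windows. NF-kB-type motifs, spelled GGG, any 2 or 3 bases and TTCC, were found in 8.26% of all windows. The Cxcl10 window held them as GGGAAATTCC, from 159 to 150 bases upstream, and as GGGGACTTCC, from 104 to 95 bases upstream, where the shorter form lies inside the longer. The Cxcl9 window held GGGTTTTCC, from 130 to 122 bases upstream, and GGGATTTCC, from 42 to 34 bases upstream. An inverted repeat in the Cxcl9 window, ATAAACTCCCCGTTTAT, spans 194 to 178 bases upstream, and its form, ATAAAC and GTTTAT with any 5 bases between them, occurred in 1 of the 32851 windows. That form was read off this very window, so its rarity is a description. The gamma-activated site, spelled TTC, any 3 bases and GAA and found in 7.02% of windows, had no match in the windows of Cxcl9 and Cxcl10, and none of the motifs had one in those of Cxcr3 and Cxcr6. No binding was measured in this study, and a match is a string of letters only.

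The 6 libraries held 13940650 to 15656894 reads in genes. Irinotecan replicate 1 stood apart: its log2 values correlated across genes with those of the others at 0.932 to 0.941, against 0.975 to 0.985 for the other pairs, and it had reads for 19040 genes against 20571 to 21426. Its genes of over 60% GC had a median log2 difference of -0.76 from the control mean, against -0.09 to 0.08 in the other 5. Results without it are given beside those of all 6 libraries. The tissue label was set beside markers of colon epithelium. Of 9 such markers, Krt20, a keratin of intestinal cells, had 1608 to 2098 normalized counts and the adhesion gene Ceacam1 1452 to 1996. The keratin genes Krt8 and Krt18 had 37.0 to 149 and 46.2 to 142, and the adhesion gene Cdh1 had 11.1 to 38.0. The other 4, Epcam, Krt19, Cdx2 and Vil1, which are defining markers of colon epithelium, were near 0, with 4.84 normalized counts at most, and Epcam had 0 reads in 5 of the 6 libraries. In the comparison of irinotecan with control over 14639 genes, limma called 0% at an adjusted p under 0.05. An unadjusted p under 0.05 was found for 5.77% of genes, 2.68% being higher with irinotecan. The log2 fold change was positive for 48.2% of the genes tested, the share to set beside the counts of positive genes over all 6 libraries below.

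Among the ligands of CXCR3, Cxcl11 separated the groups and Cxcl9 and Cxcl10 did so in 2 of the 3 irinotecan libraries. Normalized counts of Cxcl11 were 51.4, 38.7 and 49.4 in control replicates 1, 2 and 3 and 85.2, 92.5 and 99.3 in irinotecan replicates 1, 2 and 3. The lowest irinotecan library thus lay above the highest control, which was also the case for 6.68% of all genes tested. The control mean of Cxcl11 was 46.5 ± 6.84 and its irinotecan mean 92.3 ± 7.05 (SD, n = 3 each). By limma it was 1.98-fold higher, with a 95% interval of 1.33 to 2.94, an unadjusted p = 0.00395 and an adjusted p = 0.743 over all genes. Of the genes tested, 1.25% had a log2 fold change at least as large, and the gene did not pass. The counts behind these values were low, from 37 to 98 reads per library. Cxcl11 is the ligand known to bind CXCR3 most tightly.

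Cxcl10, the ligand first known as interferon-gamma-induced protein, had 215, 254 and 179 normalized counts in control replicates 1, 2 and 3. The irinotecan replicates had 221, 394 and 487. Replicate 1 lay inside the control range and the other 2 irinotecan libraries above it. The means were 216 ± 37.5 and 367 ± 135 (SD, n = 3 each), and limma gave a 1.63-fold higher level with irinotecan (95% interval 1.02 to 2.60, adjusted p = 0.743). On the log2 scale the difference was 0.70 (SE 0.296) and did not pass.

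Cxcl9, the ligand most dependent on interferon-gamma, had 782, 545 and 386 normalized counts in control replicates 1, 2 and 3. In the irinotecan group replicate 1 had 302, the lowest of the 6 libraries, while replicates 2 and 3 had 1114 and 1214, the highest 2. The irinotecan libraries thus lay on both sides of the controls. The control mean was 571 ± 199 and the irinotecan mean 877 ± 500 (SD, n = 3 each), a 1.35-fold difference whose 95% interval ran from 0.605 to 3.03 (limma adjusted p = 0.800). Its spread within the irinotecan group was thus larger than the difference between the groups.

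**Figure D1:**
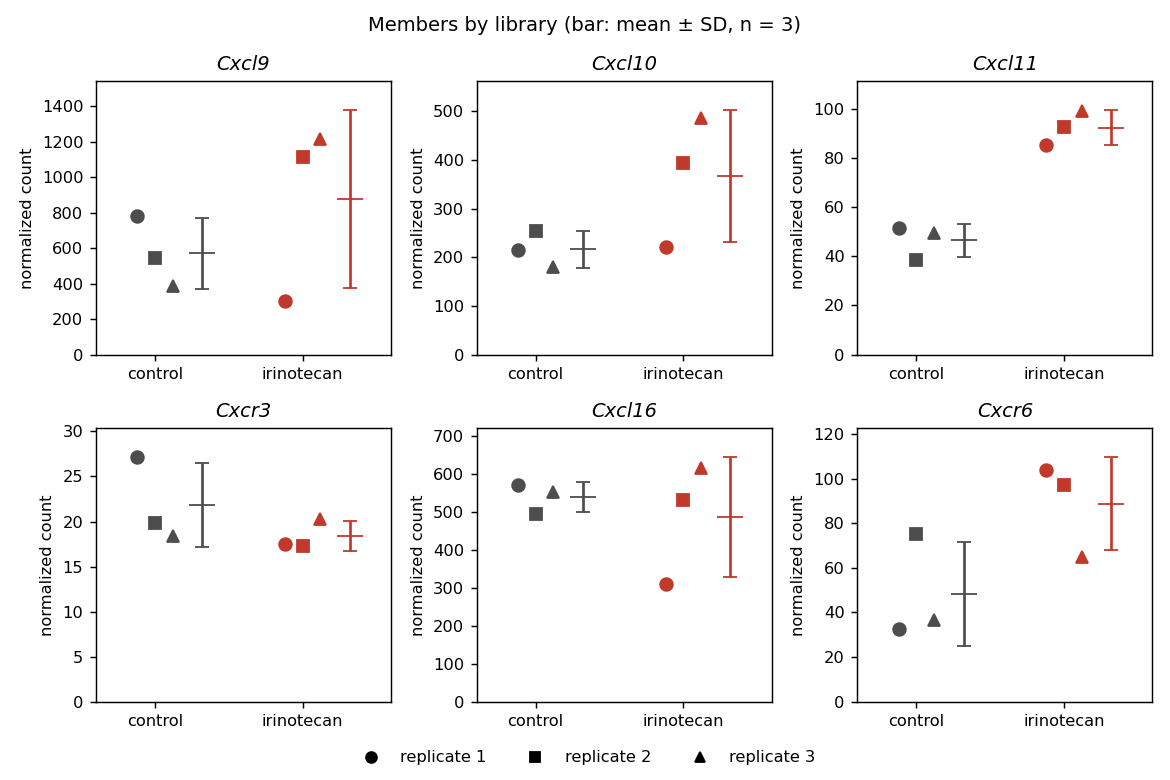
Normalized counts of the 6 genes in each library, with controls in grey and irinotecan in red, marker shapes for replicate numbers, and the mean and SD of each group (n = 3) at its side. Irinotecan replicate 1 sits at 302 for Cxcl9, below all controls, and at 85.2 for Cxcl11, above all controls.

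Without irinotecan replicate 1 the 3 ligands had nearly the same difference. Cxcl9 was then 2.12-fold higher with irinotecan, Cxcl10 2.04-fold and Cxcl11 2.05-fold, and for each of them both remaining irinotecan libraries lay above the 3 controls. Such a separation was found for 12.8% of all genes tested in the same 5 libraries. By limma the adjusted p-values were 0.109, 0.0694 and 0.182, so none passed, and 0.0137% of all genes did. DESeq2 on whole reads of the 5 libraries, an alternative added after the data were seen, called Cxcl9 (log2 fold change 1.03, adjusted p = 0.00066) and Cxcl10 (1.03, adjusted p = 0.000407) but not Cxcl11 (1.04, adjusted p = 0.166). It called 1.1% of the genes it tested. On all 6 libraries DESeq2 called none of the 6 members and 0.336% of the genes it tested. edgeR on the same 5 libraries as above called none of the 3, with an adjusted p of 0.129, 0.0698 and 0.18. With all 6 libraries and estimated library weights, limma called Cxcl10 (log2 fold change 0.97, adjusted p = 0.0375) along with 0.355% of all genes. In the authors' deposited table the log2 fold changes were 0.62 for Cxcl9, 0.77 for Cxcl10 and 0.99 for Cxcl11, with an adjusted p of 0.895, 0.57 and 0.297.

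**Figure D2:**
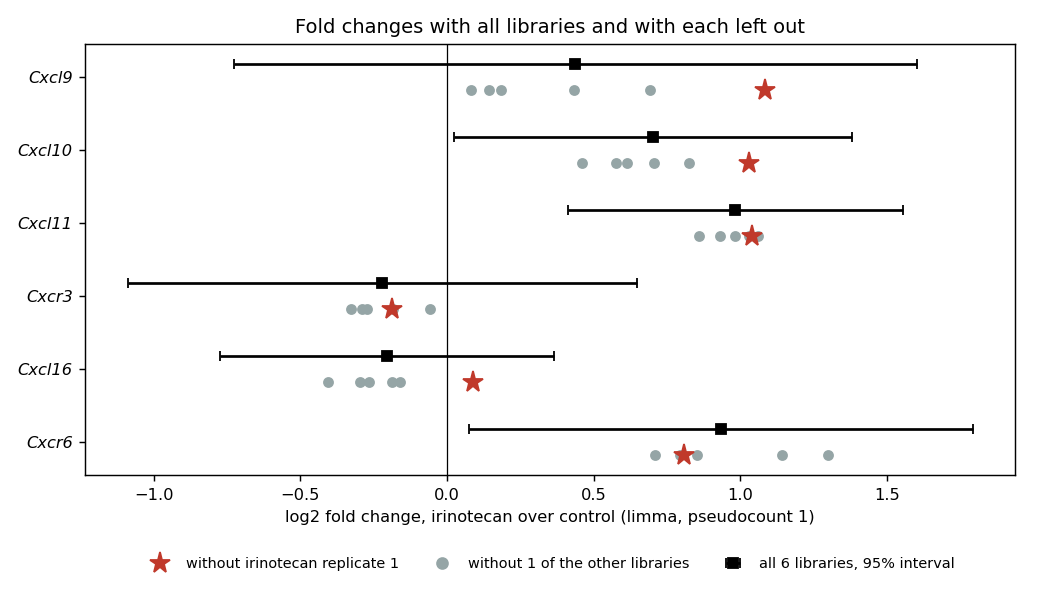
Log2 fold change of each gene, irinotecan over control, from all 6 libraries with its 95% interval (black squares) and from 5 libraries, with irinotecan replicate 1 left out (red stars) or 1 of the others (grey points). Leaving out irinotecan replicate 1 takes Cxcl9 from 0.44 to 1.08 and Cxcl16 from -0.20 to 0.09, whereas Cxcl11 stays between 0.86 and 1.06 in all such fits.

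In irinotecan replicate 1 the members departed from the control mean in different directions. Its log2 difference was -0.86 for Cxcl9, 0.05 for Cxcl10 and 0.87 for Cxcl11. It was -0.79 for Cxcl16, -0.29 for Cxcr3 and 1.19 for Cxcr6. Genes within 1 percentage point of a member's GC content had a median log2 difference in this library of 0.16 for Cxcl9, 0.09 for Cxcl10 and 0.20 for Cxcl11. It was 0.08 for Cxcl16, -0.18 for Cxcr3 and 0.20 for Cxcr6. The sign was thus that of the member for Cxcl10, Cxcl11, Cxcr3 and Cxcr6 and the opposite for Cxcl9 and Cxcl16. With a trend on GC content and length removed from each library, the log2 fold changes over all 6 libraries were 0.43 for Cxcl9, 0.76 for Cxcl10, 0.93 for Cxcl11, -0.18 for Cxcl16, -0.06 for Cxcr3 and 0.96 for Cxcr6. Macrophage and monocyte markers were low in the same library. Their summed normalized count was 4649 there, against 11422 and 11805 in the other irinotecan libraries and 10107 to 12671 in controls, and none of the 11 markers was at 0. Of these 11 markers 2 had a positive log2 fold change, and in 3 each irinotecan library lay under each control, as in 7.89% of all genes. With this library left out, 4 of the 11 were positive and the median was -0.06. In those 5 libraries 3 markers separated as higher and 3 as lower, against 12.8% and 13.7% of all genes. Of 9 dendritic cell markers, Batf3, Cd209a and Siglech had 0 reads in this library. Zbtb46 had 236 normalized counts there against 126 to 131 in controls, and the other 8 markers together had 57.5, against 203 and 257 in the other irinotecan libraries and 161 to 251 in controls. Of the 9 markers 8 were tested, 2 of them positive over all 6 libraries, with a median of -0.59. Without irinotecan replicate 1, 5 of those 8 were positive and the median was 0.10. Then 2 separated as higher and 0 as lower, against 12.8% and 13.7% of all genes. Endothelial markers summed to 2426 to 2748 in controls and to 1478 to 2091 with irinotecan, and in 4 of 7, against the same 7.89%, each irinotecan library lay under each control. Without irinotecan replicate 1, 0 of the 7 were positive and 5 separated as lower, against 13.7% of all genes. Skeletal muscle markers summed to 17.8 to 314 in controls and to 95.5 to 658 with irinotecan. The part of these differences in the ligand values was not tested. In bulk tumour RNA, fewer cells of a type and less RNA per cell cannot be told apart. For irinotecan replicate 1, a technical difference of the library cannot be told apart from these either. Its macrophage and monocyte markers were uneven. C1qc had 204 normalized counts there against 1650 to 2142 in controls, and Csf1r 1151 against 1734 to 1964. Ly6c2 had 24.6 against 3.87 to 25.1.

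Cxcl16 did not separate the groups. It had 572, 495 and 553 normalized counts in control replicates 1, 2 and 3. The irinotecan replicates had 311, 532 and 617. Replicate 1 was the lowest of the 6 libraries and replicate 3 the highest, so the groups overlapped. The means were 540 ± 40.4 and 487 ± 158 (SD, n = 3 each), a ratio of 0.868 with a 95% interval of 0.585 to 1.29 (limma adjusted p = 0.809). Without irinotecan replicate 1 the ratio was 1.06. Zmynd15, which shares exonic bases with Cxcl16, had 56.5 normalized counts in irinotecan replicate 1 and 111 to 254 in the other 5 libraries.

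Cxcr3, the receptor of CXCL9, CXCL10 and CXCL11, was the least abundant member by count. It had 27.1, 19.9 and 18.4 normalized counts in control replicates 1, 2 and 3. The irinotecan replicates had 17.5, 17.3 and 20.3. Apart from control replicate 1, the 5 libraries lay between 17.3 and 20.3. The means were 21.8 ± 4.67 and 18.4 ± 1.66 (SD, n = 3 each), and the ratio was 0.858 with a 95% interval of 0.470 to 1.57 (limma adjusted p = 0.861). The libraries held 17 to 29 reads of the gene. The exact 95% Poisson interval was 9.90 to 27.2 for 17 reads and 19.4 to 41.6 for 29 reads, which overlap and cover counting error only. Without irinotecan replicate 1 the log2 fold change was -0.19, against -0.22 with all libraries. The log2 interval from all libraries ran from -1.09 to 0.65, so lower and higher levels with irinotecan were both compatible with these values.

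Cxcr6, the receptor of CXCL16, had 32.7, 75.3 and 36.8 normalized counts in control replicates 1, 2 and 3. The irinotecan replicates had 104, 97.3 and 64.9. Control replicate 2 lay above irinotecan replicate 3, so the groups overlapped by 1 library. The means were 48.3 ± 23.5 and 88.6 ± 20.8 (SD, n = 3 each), a 1.91-fold higher level with irinotecan with a 95% interval of 1.05 to 3.46 (limma unadjusted p = 0.0361, adjusted p = 0.743). It did not pass. Leaving out control replicate 2 took the log2 fold change from 0.93 to 1.30 (unadjusted p = 0.00681). Leaving out irinotecan replicate 1 took it to 0.81 (unadjusted p = 0.0515), irinotecan replicate 2 to 0.85 (0.0949) and irinotecan replicate 3 to 1.14 (0.0247). Without control replicate 1 it was 0.71 (0.128), and without control replicate 3 it was 0.79 (0.111). Of the 6 members, Cxcl10, Cxcl11 and Cxcr6 had an unadjusted p under 0.05, all with higher values, whereas 2.68% of all genes did in that direction. With 1 library left out, the unadjusted limma p of Cxcl11 ran from 0.00202 to 0.0175 and that of Cxcl10 from 0.000119 to 0.157, being under 0.05 only without irinotecan replicate 1. The authors' deposited table gave log2 fold changes of 0.88 for Cxcr6, -0.25 for Cxcr3 and -0.15 for Cxcl16, with an adjusted p of 0.766, 0.949 and 0.936.

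The receptors were also set against the cells that carry them. The summed normalized counts of 12 T cell and 5 NK cell markers were 696, 737 and 505 in control replicates 1, 2 and 3. They were 561, 1018 and 784 in the irinotecan replicates, so the groups overlapped. T cell markers alone summed to 394 to 556 in controls and to 363 to 708 with irinotecan, 6 of the 12 had a positive log2 fold change, and 2 were at 0 reads in irinotecan replicate 1. Without that library all 12 were positive (median 0.31), and in 4 of them both irinotecan libraries lay above the controls, as in 12.8% of all genes. The part of T cell content in the receptor and ligand values was not tested. Cxcr3 amounted to 3.89, 2.70 and 3.64% of the joint sum in controls and to 3.11, 1.70 and 2.58% with irinotecan. Cxcr6 amounted to 4.70, 10.2 and 7.28% in controls and to 18.5, 9.56 and 8.27% with irinotecan. The highest share of Cxcr6 was thus in irinotecan replicate 1, and the other 2 irinotecan libraries lay within the control range. B cell markers were near 0, from 20.3 to 39.3 normalized counts for 5 genes together.

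**Figure D3:**
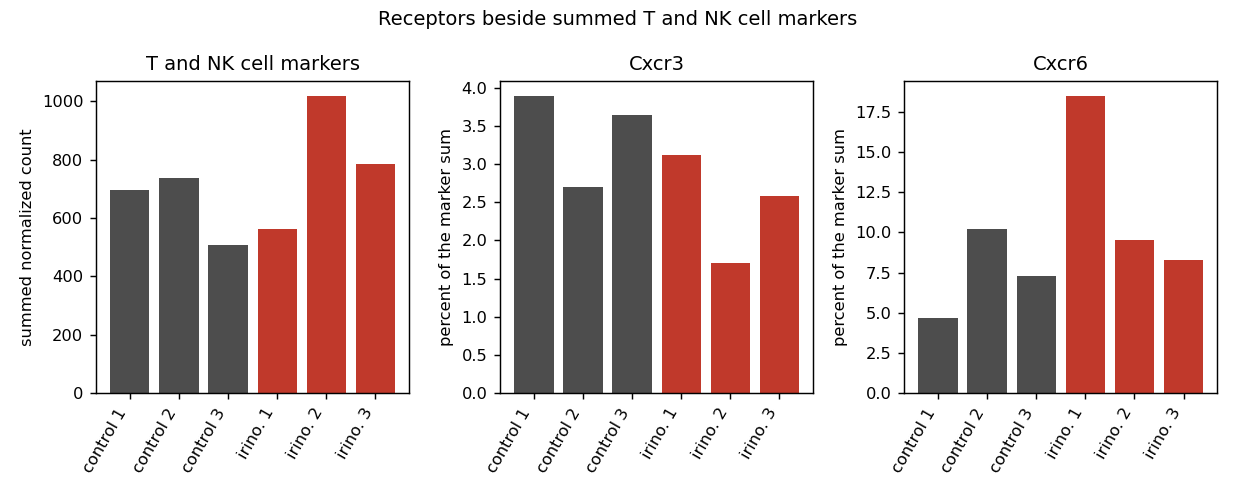
Left, the summed normalized count of 17 T and NK cell markers in each library. Middle and right, Cxcr3 and Cxcr6 as percent of that sum, with controls in grey and irinotecan in red: the Cxcr6 share is 18.5% in irinotecan replicate 1 and 4.70 to 10.2% elsewhere.

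Ratios taken inside a library need no scaling between libraries. A difference by GC content, such as that of irinotecan replicate 1, does not cancel in them. The log2 ratio of Cxcl9 to Cxcl10 had a control mean of 1.35 ± 0.437 and an irinotecan mean of 1.09 ± 0.560 (SD, n = 3 each). For Cxcl9 to Cxcl11 it was 3.54 ± 0.522 and 2.996 ± 1.02, and for Cxcl11 to Cxcl10 it was -2.19 ± 0.441 and -1.91 ± 0.482. The ratio of Cxcr3 to the T and NK marker sum was -4.83 ± 0.277 and -5.31 ± 0.444, that of Cxcr6 was -3.80 ± 0.550 and -3.12 ± 0.616, and that of Cxcl16 to the macrophage and monocyte sum was -4.44 ± 0.234 and -4.19 ± 0.268. The groups overlapped in each of the 6 ratios. In exact two-sided permutation tests the p-values ran from 0.2 to 0.6, all 0.6 after Benjamini-Hochberg adjustment over the 6, where 3 against 3 samples allow no p under 0.1. In the 2 irinotecan libraries other than replicate 1 the log2 ratio of Cxcl9 to Cxcl11 was 3.58 and 3.60, inside the control range of 2.94 to 3.90, whereas it was 1.81 in replicate 1.

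Levels of different genes were compared as normalized counts per kilobase of gene length. The full length was used for Cxcl11, of which 41.7% of exonic bases are shared with Gm2673. If reads there were not assigned to Cxcl11, its level, rank and share below are too low. In controls Cxcl9 was at 189 ± 65.9, Cxcl16 at 179 ± 13.4, Cxcl10 at 95.9 ± 16.6, Cxcr6 at 25.0 ± 12.2, Cxcr3 at 12.6 ± 2.70 and Cxcl11 at 12.3 ± 1.80 (SD, n = 3). Cxcl9 and Cxcl16 did not differ beyond their spread, and neither did Cxcr3 and Cxcl11, while the other neighbours in this order did not overlap. With irinotecan the order was Cxcl9 (291 ± 166), Cxcl10 (163 ± 59.9), Cxcl16 (161 ± 52.3), Cxcr6 (45.9 ± 10.8), Cxcl11 (24.3 ± 1.86) and Cxcr3 (10.6 ± 0.960). There the ranges of the first 3 genes overlapped. Within a library, Cxcl9 lay above Cxcl10 in all 3, though only at 100 against 98.0 in irinotecan replicate 1. Cxcl11 lay above Cxcr3 in all 3 libraries. Of the summed level of the 3 CXCR3 ligands per kilobase, Cxcl9 made up 58.1 to 70.4% in controls and 45.4, 65.0 and 62.4% in irinotecan replicates 1, 2 and 3. Cxcl11 made up 3.36 to 5.90% in controls and 10.2, 4.28 and 4.06% with irinotecan. Their joint level per kilobase was 368, 304 and 221 in control replicates 1, 2 and 3 and 221, 569 and 645 in the irinotecan replicates.

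**Figure D4:**
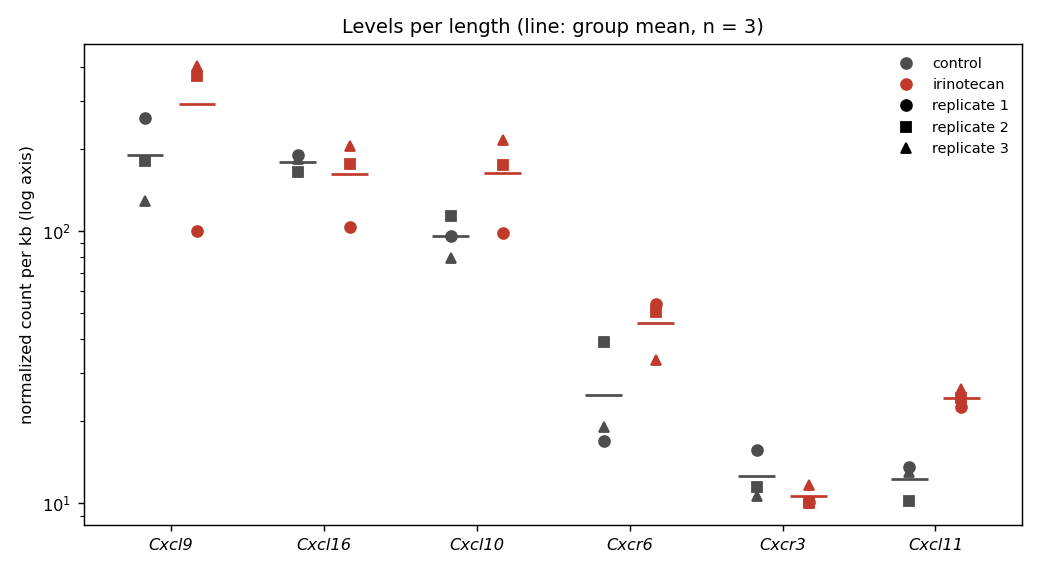
Normalized count per kilobase of gene length on a log axis, by gene and library, with controls in grey, irinotecan in red, shapes for replicate numbers and lines for group means (n = 3). Cxcl9, Cxcl16 and Cxcl10 lie at 79.5 or above in every library, and Cxcr6, Cxcr3 and Cxcl11 lie at 53.7 or below.

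Neighbours of the ligand cluster were looked at next. Within 100 kb of it, 5 other genes passed the filter. Their log2 fold changes were -0.16 for the lipid hydrolase gene Naaa, -0.11 for Sdad1, -0.58 for the ADP-ribosyltransferase gene Art3, -0.09 for the nuclear pore gene Nup54 and 0.11 for the lysosomal membrane gene Scarb2. The groups overlapped in all 5. They did so without irinotecan replicate 1 too, where the values ran from -0.21 for Art3 to 0.25 for Naaa and the sign turned for Naaa and for Scarb2 (-0.10). Art3, whose span holds Cxcl10 and Cxcl11 on the other strand, had 9.68 to 21.5 normalized counts in controls and 5.13 to 15.2 with irinotecan, far under those of Cxcl10.

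**Figure D5:**
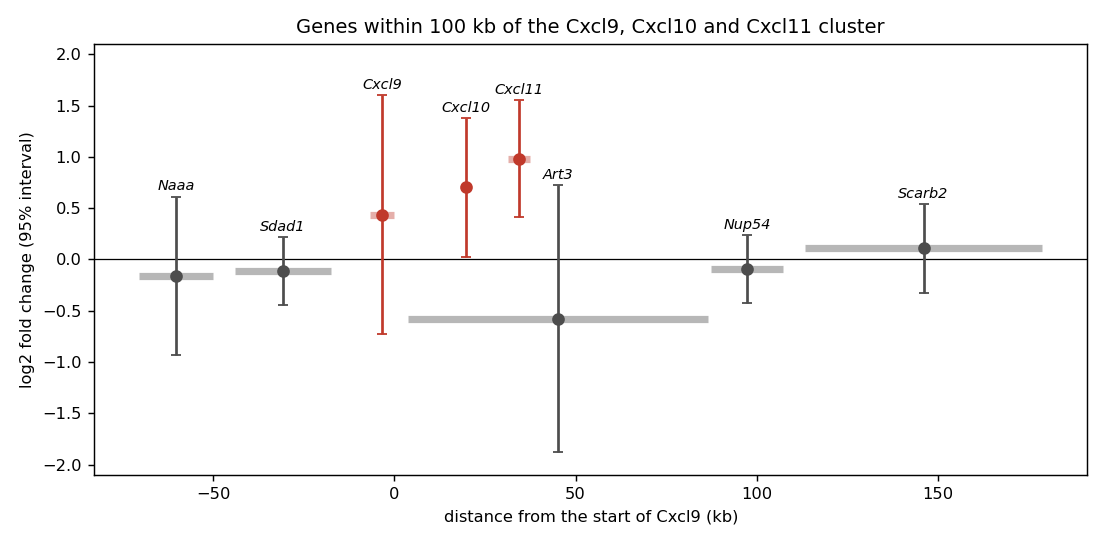
Log2 fold change, irinotecan over control, with its 95% interval, of the genes tested within 100 kb of the cluster, placed by distance from the start of Cxcl9, with the ligands in red, other genes in grey and thick bars for gene spans. The 3 ligands have values of 0.44, 0.70 and 0.98, and the other 5 genes range from -0.58 to 0.11.

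Upstream of the ligands, genes of the interferon and NF-kB routes to their induction gave mixed values. Of 18 such genes 16 were tested. The log2 fold change was positive for 9 of the 16, against 48.2% of all genes tested. Of the 16, 0 were called, and the median was 0.12 against -0.01 over all genes. Stat2 and Irf7, transcription factors of the type I interferon route, were higher in each irinotecan library than in each control. Stat2 had 806, 1109 and 652 normalized counts in controls and 1167, 1232 and 1424 with irinotecan (log2 fold change 0.60, SE 0.203). Irf7 had 578, 580 and 312 in controls and 772, 781 and 881 with irinotecan. Lower in each irinotecan library were Ifngr2, a chain of the interferon-gamma receptor (657 to 761 against 588 to 642), and Rela, an NF-kB subunit. Rela had 1511 to 1628 normalized counts in controls and 780, 1421 and 1446 in irinotecan replicates 1, 2 and 3. For these 4 genes, limma adjusted p = 0.743, and separations of this kind were found for 6.68% of all genes in the higher and 7.89% in the lower direction. Without irinotecan replicate 1 the log2 fold change was 0.66 for Stat2, 0.81 for Irf7, -0.23 for Ifngr2 and -0.12 for Rela. In those 5 libraries 12 of the 16 genes were positive, with a median of 0.13, and 5 separated as higher and 3 as lower, against 12.8% and 13.7% of all genes.

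Ifng, the gene of interferon-gamma itself, was singled out after its values were seen. It was under the filter, with 4.67, 4.18 and 5.81 normalized counts in controls and 0, 8.67 and 19.3 in irinotecan replicates 1, 2 and 3. Among the irinotecan libraries, its lowest value was in the one with the lowest Cxcl9, and its highest in the one with the highest. In controls the order differed: replicate 3 had the highest Ifng value but the lowest Cxcl9, at 386 normalized counts. Values of Ifng were near the floor, and a link between the 2 genes was not tested.

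Genes that process or bind these chemokines were followed as well. Of 7 such genes 6 were tested, 2 with a positive log2 fold change and with a median of -0.07, and in none did the groups separate. The log2 fold change was -0.03 (SE 0.150) for Adam10, the protease that sheds CXCL16, and -0.11 (SE 0.127) for Adam17, another sheddase. Dpp4, a peptidase that trims CXCR3 ligands, had 22.4 to 32.9 normalized counts in controls and 9.24, 27.0 and 34.5 with irinotecan. For Ackr3, an atypical receptor that binds CXCL11, the value was 0.02 (SE 0.184). Leaving out irinotecan replicate 1 gave -0.17 for Ackr3, -0.17 for Adam10 and -0.18 for Adam17, and for each of these 3 the irinotecan libraries lay under the controls, as in 13.7% of all genes. It was 0.09 for Dpp4.

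The other CXC chemokines and receptors lay mostly on the lower side. Of 12 such genes tested, 1 (Ackr3) had a positive log2 fold change, 0 were called, and the median was -1.11. In 6 of them, against 7.89% of all genes, each irinotecan library lay under each control. They were the neutrophil chemokines Cxcl1 and Cxcl5, the B cell chemokine Cxcl13, Cxcl14, and the receptor genes Cxcr2 and Cxcr4, with log2 fold changes from -2.13 to -1.06. In the 5 libraries without irinotecan replicate 1, 0 of the 12 were positive, the median was -1.08, and 8 lay lower without overlap, against 13.7% of all genes. These names were taken after their values were seen. Cxcr4, the receptor of CXCL12, had 131 to 181 normalized counts in controls and 113, 61.6 and 55.7 with irinotecan.

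The genes closest in pattern to each ligand were taken as the 5 protein-coding genes with the highest Pearson r of log2 values over the 6 libraries, among 10749 candidates with a mean of at least 50. For Cxcl9 they were Serpina3g (r = 0.987), Cnnm3, Nmnat1, Klhdc3 and Katna1 (r = 0.977). For Cxcl10 they were Hip1r (r = 0.998), Tex9, Kansl1, Mvk and Cenpj (r = 0.980). For Cxcl11 they were Serpinb9 (r = 0.983), Adra2b, Cspp1, Kif20b and Qpctl (r = 0.962). These r values are the highest of many over 6 libraries and serve as a description. The 3 sets of 5 share no gene. Between the ligands themselves r was 0.83 for Cxcl9 with Cxcl10, 0.39 for Cxcl9 with Cxcl11 and 0.69 for Cxcl10 with Cxcl11. Without irinotecan replicate 1 these values were 0.89, 0.85 and 0.86. They take both groups together, and in those 5 libraries both irinotecan values lay above the controls for each ligand. A high r there thus restates the difference between the groups and does not show that the ligands vary together within a group.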

How the data were processed

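Bulk RNA sequencing of 3 control and 3 irinotecan samples of tumour tissue was used. The submitters' processing notes name HISAT2 2.0.5, featureCounts 1.5.0-p3, CASAVA, DESeq2 1.20.0 and fastp, without their roles, and the build GRCm38 (mm10). The authors deposited a normalized signal per gene and library, that is, reads divided by 1 factor per library. In each library 100% of values were whole multiples of the value of 1 read at a tolerance of 1e-06, so whole reads were recovered for count tests. The deposited table also holds the authors' log2 fold changes, p-values and gene lengths. The main test was limma 3.58.1 in R 4.3.3 on log2(normalized count + 1), its prior variance following the mean. Changes of low genes come out too small on this scale. Genes with a mean of at least 10 were tested (14639), two-sided, with Benjamini-Hochberg adjustment over all of them. Intervals of fold changes are not adjusted. Alternatives used edgeR 4.0.16, DESeq2 1.42.0, other scalings, pseudocounts, filters, library weights and left-out libraries. After the data were seen, edgeR and DESeq2 without irinotecan replicate 1 and removal of a GC and length trend were added, as were the lists and neighbours without that library. Tests were first tried on simulated counts. Exact permutation tests used scipy 1.17.1.

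By rule, the genes named were the 6 members, genes of 2 lists (induction, and processing of the ligands) whose groups did not overlap, and the 5 genes of most like pattern per ligand. Ifng, the genes named from the processing and other CXC lists, the cluster's neighbours and the cell markers fall outside that rule and were named after their values were seen. The members and lists were chosen with earlier results of these data known. A gene of the induction list is counted in that list but not reported here. Replicates differed by more than counting noise. Same-numbered samples did not deviate together (correlations of -0.11, -0.01 and -0.21), so the numbers were not taken as pairs.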

Additional observations from a re-analysis of the deposited data

How the results depend on the processing

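Each member's fold change was refitted under up to 19 alternatives. Cxcl10, Cxcl11, Cxcr6 and Cxcr3 kept their direction in all of those run, and so did Cxcl9. Cxcl16 turned from -0.20 to 0.0322 with estimated library weights, and to 0.09 without irinotecan replicate 1 by limma, by edgeR and by DESeq2 (0.0916 and 0.0882 for the last 2). With 1 library left out, log2 fold changes ranged from 0.08 to 1.08 for Cxcl9, 0.46 to 1.03 for Cxcl10, 0.86 to 1.06 for Cxcl11, -0.33 to -0.06 for Cxcr3, -0.40 to 0.09 for Cxcl16 and 0.71 to 1.30 for Cxcr6. Cxcl10 passed with library weights (0.97) and Cxcl9 and Cxcl10 with DESeq2 on 5 libraries (1.03 each), and no other fit called a member. Over all genes the count of calls was 0 by limma and 0 by edgeR on 6 libraries, with an unadjusted p under 0.05 for 844 and 869 genes. It was 47 by DESeq2 and 52 with library weights. Without irinotecan replicate 1 it was 2 by edgeR and 151 by DESeq2, and it ranged from 0 to 2 by limma over the left-out libraries. The cause of these changes was not tested. With the replicate number as a block, limma called 0 genes, with an unadjusted p under 0.05 for 621, and the log2 fold change of Cxcl11 was again 0.98 with an adjusted p = 0.905. No sample deviated most like the one of its own number in the other group. The log2 ratios of Cxcl9 to Cxcl10 (-0.26) and to Cxcl11 (-0.55) turned to 0.0548 and 0.0463 without irinotecan replicate 1. With 1 library left out the 6 differences in log2 ratio ranged from -0.47 to 0.05 for Cxcl9 to Cxcl10, -0.85 to 0.05 for Cxcl9 to Cxcl11, 0.0085 to 0.47 for Cxcl11 to Cxcl10, -0.67 to -0.24 for Cxcr3, 0.32 to 0.93 for Cxcr6 and 0.10 to 0.37 for Cxcl16. Without division by length, Cxcl11 was 5th and Cxcr3 6th in controls, and with irinotecan Cxcl16 was 2nd, Cxcl10 3rd, Cxcl11 4th and Cxcr6 5th. Cxcr3 could not be fitted at a mean of at least 50, being under it. Depth limits Cxcr3 most, at 17 to 29 reads.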
